A study of Ziziphus jujuba var. spinosa with 24 samples.

Results

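Leaf transcripts of diploid sour jujube (Ziziphus jujuba var. spinosa) after 12 h of drought were compared with those after 6 h, the earliest 2 drought harvests of the series. The 6 libraries were chosen by their labels, 3 at 12 h and 3 at 6 h, out of 24 in all, and no measured value entered the choice. Diploid and autotetraploid plantlets, the autotetraploids with doubled chromosome sets, were sampled as untreated controls and after 6, 12 and 48 h of drought, in 8 groups of 3 libraries. All carried the label wild type and came from long-propagated lines kept for 30 days in tissue culture and 45 days on rooting medium, then in dilute nutrient solution, 3 days in the dark and 7 in the light. Drought was imposed in both groups compared with PEG6000, a polymer that lowers the water potential around the roots, raised in daily steps of 5, 10 and 15% to a final 20%. The same daily cycle of light and dark, with more hours of light than of dark, is given for all 24 libraries. The labels give neither the PEG concentration nor the hour of day at each harvest. They also do not say whether either harvest fell in the dark part of the cycle. Time under drought, PEG concentration, hour of day and light or dark cannot be told apart between 12 h and 6 h. Nothing in the labels says whether the numbered libraries of a group are separate plants. The p-values therefore hold for the spread among these libraries, and part of that spread may be technical.

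In leaves under water shortage, stomata close, less carbon dioxide enters and light absorbed in excess of carbon fixation drives the formation of reactive oxygen. Carbon is fixed by rubisco, which depends on rubisco activase, an ATP-driven chaperone that frees its active sites of bound sugar phosphates. Many leaf transcripts, among them those of photosynthesis, also follow the hour of the day in plants generally.

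The 6 libraries held 30750412 to 42544833 counts and 26196 to 26730 genes with at least 1 count. The first principal component, with 32.9% of the variance, set the 12 h libraries at -47.7, -44.0 and -39.9 and the 6 h libraries at 40.2, 48.2 and 43.2, so no library stood with the other harvest. Of 32527 genes listed, 25829 had enough counts to be tested. The tissue label is leaf: both rubisco activase genes had at least 6590 counts in each of the 6 libraries. The floral meristem markers LFY and AP1 were near 0 in all 6, with at most 8 counts for LFY and 2 for AP1 in a library. Levels are given in CPM, counts relative to the library total after TMM scaling, and differences as log2 fold changes of 12 h over 6 h with their standard error. As in any bulk tissue, fewer cells of a type and less RNA per cell cannot be told apart.

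At 12 h of drought more genes were lower than higher relative to 6 h under TMM scaling, and both rubisco activase genes, catalase and GAPDH were among the genes that fell. In total 2083 genes (8.06% of 25829) passed edgeR's quasi-likelihood test at an adjusted p under 0.05, of which 662 (2.56%) were higher and 1421 (5.5%) lower at 12 h. The lower genes also moved further: their median log2 fold change was -0.89, with quartiles of -1.38 and -0.54, against 0.60 with quartiles of 0.42 and 0.86 for the higher genes and -0.01 over all genes tested. At 2-fold or more, 123 genes were higher and 618 lower, and at 8-fold or more, 13 were higher and 64 lower.

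The split of calls by direction depended on the scaling, while changes of 2-fold or more were mostly decreases under each scaling tried. With library totals alone, which moved the median over all genes by 0.110 in log2 relative to TMM factors, 60.3% of 2767 calls were higher, and with upper quartile factors 45.5% of 2275, against 31.8% of 2083 with TMM factors. The authors' FPKM values in limma gave 54% of 2536. At 2-fold or more, library totals alone left 198 genes higher and 518 lower, and upper quartile factors 153 higher and 573 lower. In 2067 of the 2083 called genes (99.2%) the libraries of both times did not overlap, beside 7568 (29.3%) of all genes tested.

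**Figure D1:**
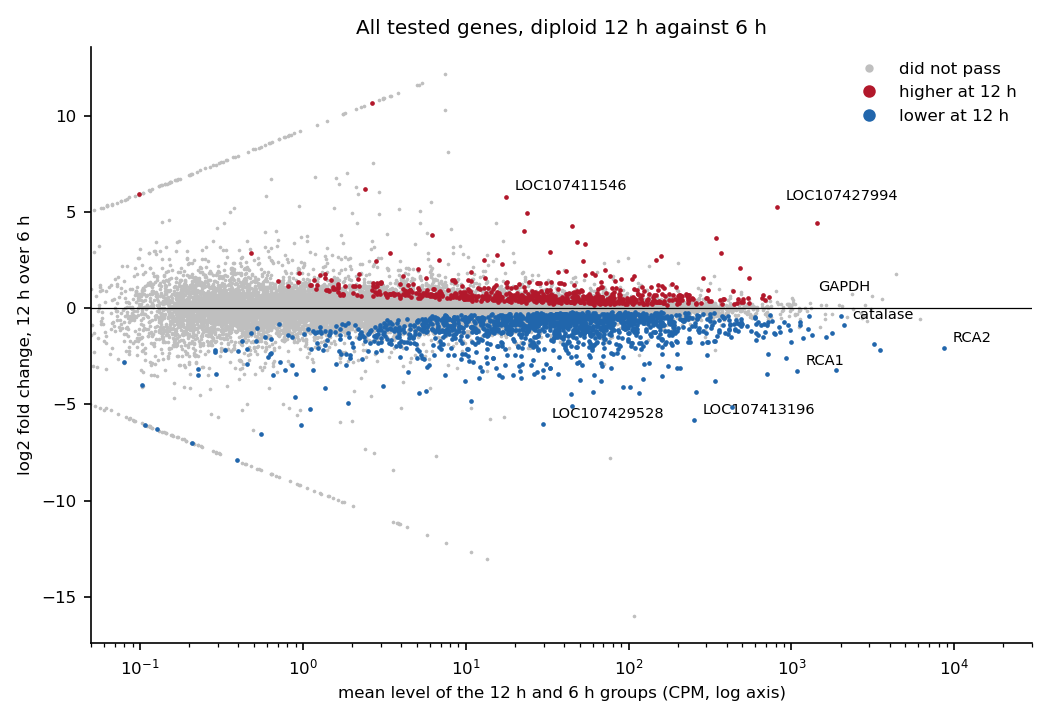
Log2 fold change of 12 h over 6 h in the diploid (y axis) against the mean level of both groups in CPM (x axis, log scale), 1 point per tested gene, with the 662 higher and 1421 lower genes in colour and the others in grey. Blue points outnumber red ones, most clearly at the right of the plot, where RCA2 lies farthest out, and LOC107427994 is among the few abundant genes far above 0. The straight rays of points are genes with no count at one of the times, where the fitted value depends on a small added count.

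The share of genes called lower was highest among those with the highest levels. Of the 56 genes with a mean of 1000 CPM or more over the 6 libraries, 15 (26.8%) were lower and 1 (1.79%) higher, and of the 2067 genes between 100 and 1000 CPM, 278 (13.4%) were lower and 125 (6.05%) higher. Between 1 and 10 CPM, 273 of 8291 genes (3.29%) were lower and 149 (1.8%) higher. The power to call a gene rises with its counts, and its part in this gradient was not tested. The 100 genes most abundant on average over the 6 libraries were taken as 1 fixed set, which includes RCA2 and the gene model Ziziphus_jujuba_newGene_4791. They held 13.9, 12.3 and 14.9% of a library's counts at 12 h, against 14.6, 17.6 and 16.7% at 6 h. The 12 h libraries averaged 13.7 ± 1.29% and the 6 h libraries 16.3 ± 1.51% (SD, n = 3 each), and 1 library of 12 h lay above 1 of 6 h. An exact two-sided permutation test over the libraries gave p = 0.2, where 3 against 3 cannot go below 0.1. The overlap lay between the third 12 h and the first 6 h library. In these, Ziziphus_jujuba_newGene_4791 alone had 175485 and 4694 counts, of library totals of 30750412 and 39662702. The share was not tested without this gene model, so the overlap and the p-value may rest on it.

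Both rubisco activase genes fell. RCA1 (LOC107411034) stood at 227, 174 and 205 CPM in the 12 h libraries, against 1309.8, 2455 and 2130.4 CPM in the 6 h libraries. Every 12 h library lay far below every 6 h library. The log2 fold change of RCA1 was -3.28 ± 0.22, or 9.72-fold lower (adjusted p = 7.55e-09, edgeR).

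RCA2 (LOC107413423), the second activase gene and with the highest mean CPM of all genes over these 6 libraries, stood at 3629, 2649.6 and 3666 CPM at 12 h, against 10293, 17452 and 14094 CPM at 6 h. The groups were again apart, and the lowest 6 h library still held more than the highest 12 h library. RCA2 fell by 2.07 ± 0.21 on the log2 scale, or 4.21-fold (adjusted p = 1.44e-06). As background, plant rubisco activase genes can encode forms that differ in their regulation, and the files do not say which form either gene encodes.

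The fitted decrease was larger for RCA1 than for RCA2, and the ratio of both transcripts was higher at 12 h. Per transcript length, in FPKM, RCA2 exceeded RCA1 18.8, 17.9 and 21.0 times in the 12 h libraries, against 9.25, 8.36 and 7.77 times in the 6 h libraries. On the log2 scale the ratio averaged 4.26 ± 0.12 at 12 h and 3.08 ± 0.13 at 6 h (SD, n = 3 each), and the groups did not overlap. The exact two-sided permutation test gave p = 0.1, the smallest that 3 against 3 allow. Over the diploid groups the ratio was 3.69 to 3.98 in controls, 7.77 to 9.25 at 6 h, 17.9 to 21.0 at 12 h and 3.31 to 3.49 at 48 h.

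**Figure D2:**
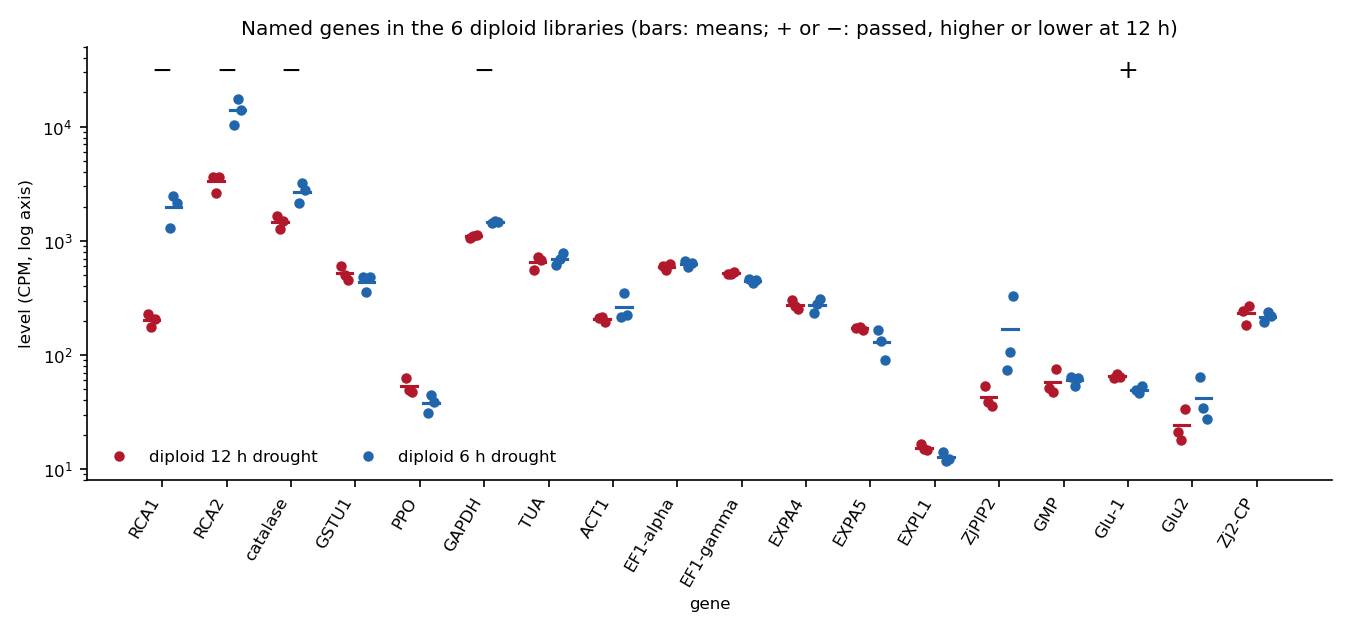
Levels in CPM (y axis, log scale) of the 18 named genes tested, in the 3 libraries at 12 h (red) and the 3 at 6 h (blue) of the diploid, with bars at the means and a sign above genes that passed the test. RCA1, RCA2, catalase and GAPDH carry a minus sign and Glu-1 a plus sign.

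Of 3 genes set together, catalase, GSTU1 and PPO, catalase fell and the other 2 did not pass, beside 5.5% of all genes tested that fell. The catalase gene (LOC107419839), whose enzyme splits hydrogen peroxide into water and oxygen, stood at 1642, 1284 and 1488 CPM at 12 h, against 2128, 3185 and 2795 CPM at 6 h. No 12 h library reached the lowest 6 h library. Its log2 fold change was -0.88 ± 0.13 (adjusted p = 1.32e-04).

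GSTU1, named as a glutathione S-transferase, a family that couples glutathione to reactive compounds, had 606, 501 and 451 CPM at 12 h, against 483, 356 and 483 CPM at 6 h. These groups overlapped, and its log2 fold change of 0.24 did not pass (adjusted p = 0.781). PPO, a polyphenol oxidase, which oxidises phenolic compounds, had 63.2, 49.8 and 47.8 CPM at 12 h, against 31.0, 45.0 and 38.4 CPM at 6 h. The groups of PPO did not overlap, as in 29.3% of all genes tested, and its log2 fold change of 0.49 did not pass (adjusted p = 0.624).

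Of 5 genes often used as expression references, 1 fell and 4 did not pass, beside 5.5% of all genes tested that fell. GAPDH (LOC107418185), a glycolytic enzyme, stood at 1068, 1109 and 1126 CPM at 12 h, against 1442, 1508 and 1465 CPM at 6 h. The libraries of each time lay close together and the times were apart, with a log2 fold change of -0.42 ± 0.07 (adjusted p = 9.43e-04). EF1-gamma, a subunit of the translation elongation factor complex, had 516, 508 and 538 CPM at 12 h, against 460.2, 431 and 457 CPM at 6 h. These groups did not overlap either, as in 29.3% of all genes tested, and the log2 fold change of 0.21 ± 0.06 missed the threshold (adjusted p = 0.0502). It passed with DESeq2 (adjusted p = 0.00357) and under 6 other alternatives.

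The other 3 reference genes gave no call. The actin gene ACT1 differed by -0.34 (adjusted p = 0.335), the tubulin gene TUA by -0.09 (0.818) and EF1-alpha, which delivers transfer RNAs to the ribosome, by -0.08 (0.762), all on the log2 scale. In ACT1 the 12 h libraries held 212, 215 and 196 CPM, against 213, 349 and 224 CPM at 6 h, so that a single 6 h library stood high.

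None of the 3 expansin genes passed. Expansins loosen the cell wall during growth. EXPA4 had 301, 271 and 252 CPM at 12 h, against 234, 277 and 310.2 CPM at 6 h, which overlap fully (log2 fold change 0.01, adjusted p = 0.998). EXPA5 averaged 171 ± 6.74 CPM at 12 h and 129.5 ± 37.6 CPM at 6 h (SD, n = 3 each) and overlapped by 1 library (0.40, adjusted p = 0.6). The expansin-like gene EXPL1 averaged 15.4 ± 1.09 CPM at 12 h and 12.7 ± 1.27 CPM at 6 h, without overlap (0.28, adjusted p = 0.596).

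The water channel gene ZjPIP2, a plasma membrane aquaporin, had 53.9, 38.7 and 35.9 CPM at 12 h, against 74.2, 106 and 330.5 CPM at 6 h. The 12 h libraries lay below all 6 h libraries, among which the third was more than 3 times as high as the others. The log2 fold change of -1.99 ± 0.73 did not pass (adjusted p = 0.118), and it passed in a fit of the 12 diploid libraries alone (adjusted p = 0.034).

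Of the 4 remaining named genes, Glu-1 (LOC107434932) rose, at 62.5, 68.3 and 64.5 CPM at 12 h, against 49.7, 46.7 and 53.0 CPM at 6 h. The groups were apart, with a log2 fold change of 0.39 ± 0.11 (adjusted p = 0.0367). This call was lost on leaving out any of the 3 libraries at 12 h or either of the first 2 at 6 h (adjusted p between 0.0576 and 0.132). Glu2 differed by -0.79 (adjusted p = 0.276), Zj2-CP by 0.10 (0.823) and GMP by -0.06 (0.939) on the log2 scale, each with overlapping libraries. In all, 1 of the 18 named genes rose, 4 fell and 13 did not pass, beside 2.56% higher and 5.5% lower of all genes tested. In 9 of the 18 (50%) the groups did not overlap, beside 29.3% of all genes tested. The median log2 fold change of the 18 was -0.07, beside -0.01 over all genes tested.

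The other genes of the comparison carry identifiers without a description in the files or in the reference table, so their levels are given without a role. The rule kept called genes that averaged 5 CPM or more, with separate groups and under 10-fold spread within each time. Among these the 2 largest rises were those of LOC107411546 and LOC107427994. Called genes outside the rule reached log2 fold changes of 10.7 and -7.91. LOC107411546 had 34.8, 32.5 and 36.5 CPM at 12 h, against 0.319, 0.706 and 0.839 CPM at 6 h, a log2 fold change of 5.79 ± 0.67 (adjusted p = 7.6e-06). LOC107427994 had 1378, 1494 and 1904 CPM at 12 h, against 28.5, 48.6 and 46.3 CPM at 6 h, a log2 fold change of 5.27 ± 0.34 (adjusted p = 4.18e-09). In both genes every 12 h library lay more than 20 times above every 6 h library. Among the diploid groups, of which the controls carry no harvest time, both genes were highest at 12 h. LOC107427994 averaged 27.3 CPM in controls, 41.1 CPM at 6 h, 1592 CPM at 12 h and 52.2 CPM at 48 h. LOC107411546 averaged 0.255, 0.622, 34.6 and 0.292 CPM in the same groups.

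The 2 deepest falls by the same rule were those of LOC107429528 and LOC107413196. LOC107429528 had 0.805, 0.93 and 0.997 CPM at 12 h, against 49.9, 63.6 and 62.7 CPM at 6 h, a log2 fold change of -6.01 ± 0.25 (adjusted p = 1.45e-11). LOC107413196 had 11.1, 11.5 and 4.14 CPM at 12 h, against 443, 542 and 505 CPM at 6 h, a log2 fold change of -5.80 ± 0.39 (adjusted p = 7.48e-09). Neither gene was low at 48 h. LOC107429528 averaged 119 CPM in controls, 58.7 CPM at 6 h, 0.911 CPM at 12 h and 158 CPM at 48 h. LOC107413196 averaged 371, 497, 8.91 and 661 CPM in the same groups.

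Among genes changed at least 2-fold, those with the highest mean level were also named. Of the 5 on the lower side, RCA2 was the first, and the other 4 were LOC107413540, LOC107426784, LOC107416999 and LOC107420125. LOC107413540 had 1233, 1131 and 1465 CPM at 12 h, against 5251, 6356 and 5629 CPM at 6 h (log2 fold change -2.17 ± 0.23, adjusted p = 2.63e-06). LOC107416999 had 365, 351 and 383 CPM at 12 h, against 2960.2, 3947 and 3217 CPM at 6 h (-3.20 ± 0.20, adjusted p = 2.37e-09). In both genes the 6 h level was the highest of the diploid series, with control means of 2414 CPM for LOC107413540 and 2151 CPM for LOC107416999.

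LOC107426784 had 1533, 1066 and 1524 CPM at 12 h, against 3642, 5961 and 5428 CPM at 6 h (-1.87 ± 0.19, adjusted p = 1.33e-06). LOC107420125 had 1087, 861 and 1125 CPM at 12 h, against 1756, 3101 and 2647 CPM at 6 h (-1.29 ± 0.21, adjusted p = 4.15e-04). No library of one time reached into the other in these genes. Their 6 h libraries showed the same order as those of RCA1, RCA2 and catalase, with the first lowest and the second highest.

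On the higher side, LOC107427994 was again among the 5. LOC107410828 had 604, 594 and 747 CPM at 12 h, against 73.1, 78.5 and 113 CPM at 6 h (2.88 ± 0.24, adjusted p = 1.19e-07). LOC107410922 had 767, 734 and 858 CPM at 12 h, against 164, 192 and 189.5 CPM at 6 h (2.11 ± 0.27, adjusted p = 2.94e-05). LOC107420469 had 882, 571 and 1019 CPM at 12 h, against 193, 305 and 332 CPM at 6 h (1.57 ± 0.26, adjusted p = 5.12e-04).

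These 3 genes differed in their 6 h level relative to the control. LOC107420469 averaged 14.2 CPM in controls, 277 CPM at 6 h, 824 CPM at 12 h and 31.8 CPM at 48 h, so that its 6 h level already lay well above the control level. LOC107410922 likewise averaged 51.4, 182, 786 and 43.3 CPM in the same groups. LOC107410828 averaged 84.0 CPM in controls and 88.2 CPM at 6 h, with its rise between 6 and 12 h.

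The fifth, the gene model Ziziphus_jujuba_newGene_4791, rested on single libraries. It had 2605, 146 and 5468 CPM at 12 h, against 115, 136 and 132 CPM at 6 h. The second 12 h library lay just above the 6 h libraries, and the others 1 order of magnitude or more above them. Its log2 fold change of 4.42 ± 1.17 passed (adjusted p = 0.0223), but not without the third 12 h library (3.43, adjusted p = 0.0953) and not without any single 6 h library (adjusted p between 0.0828 and 0.0879).

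**Figure D3:**
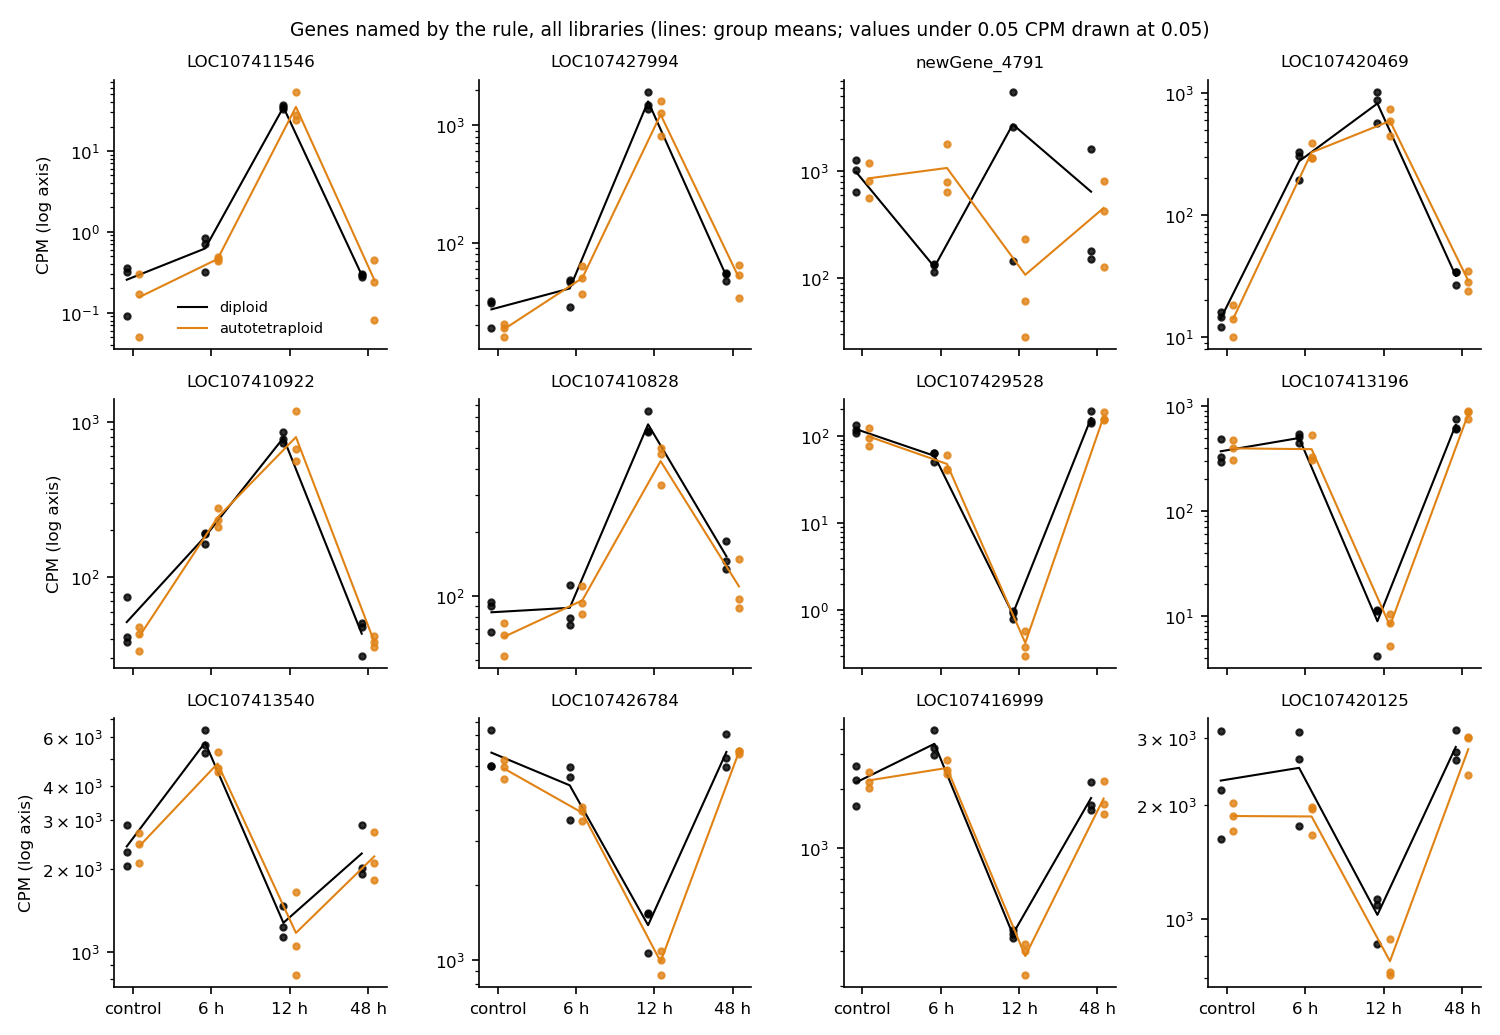
Levels in CPM (y axes, log scale) of the 12 identifiers named by the rule, at control, 6, 12 and 48 h (x axis), with 1 point per library and lines through the group means, diploid in black and autotetraploid in orange. In 11 panels both lines run together through a peak or a trough at 12 h, and in the panel of the new gene model they run apart.

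Taken as sets, the genes called between 12 h and 6 h stood near their control levels at 48 h. The 1421 lower genes held 18.4 to 21.7% of the counts of a library in diploid controls, 17.3 to 20.1% at 6 h, 9.10 to 9.39% at 12 h and 19.8 to 22.1% at 48 h. The 662 higher genes held 3.47 to 3.52% in controls, 3.33 to 3.56% at 6 h, 5.87 to 6.42% at 12 h and 3.40 to 3.86% at 48 h. The 6 h and 12 h values only describe the choice of these genes, and the control and 48 h means were not part of the contrast.

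The autotetraploid libraries showed the same sequence. Their group means were not part of the contrast, but they shared the filter, the scaling and the estimate of spread of the fit that called these genes. There the diploid's lower genes held 19.0 to 19.5% of counts in controls, 15.6 to 16.6% at 6 h, 8.65 to 8.87% at 12 h and 20.8 to 21.9% at 48 h. Of these 1421 genes, 1214 (85.4%) had their lowest autotetraploid group mean at 12 h, beside 25.1% of all genes tested. Of the 662 higher genes, 494 (74.6%) had their highest autotetraploid mean at 12 h, beside 27.1% of all genes tested.

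**Figure D4:**
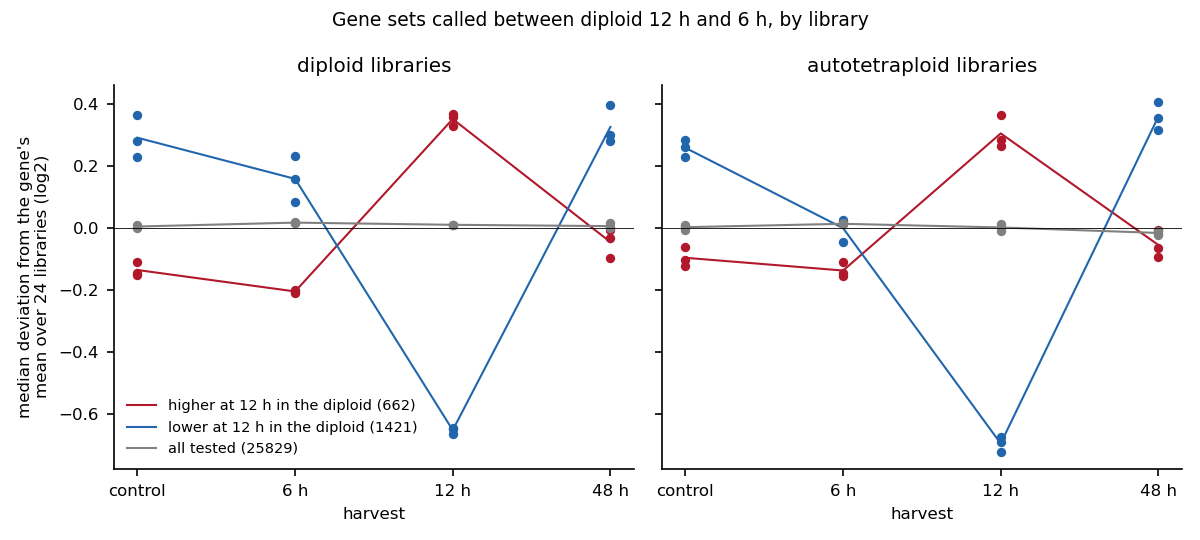
Median deviation of each gene set from the genes' means over 24 libraries, in log2 units (y axis), at control, 6, 12 and 48 h (x axis), with 1 point per library and lines through the means, for diploid (left) and autotetraploid libraries (right). The set lower in the diploid at 12 h dips at 12 h in both panels, the higher set peaks there, and all genes tested stay near 0.

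The same contrast in the autotetraploid called 2080 genes (8.05%), with 754 higher (2.92%) and 1326 lower (5.13%). Both ploidies shared 1391 calls in the same direction, which were 66.8% of the diploid and 66.9% of the autotetraploid calls, and no gene was called in opposite directions (with DESeq2, 20 were). Of the diploid's lower calls 987 (69.5%) were shared, and of its higher calls 404 (61%). Of the 2083 diploid calls, 2053 (98.6%) had the same sign in the autotetraploid, beside 17714 (68.6%) of all genes tested. Across the 2083 genes the fold changes of both ploidies had a Pearson's r of 0.849, and 0.168 across all genes tested, as a description over genes, which are not independent replicates. The value across all genes moved with the processing: it was 0.0176 with DESeq2, 0.348 and 0.534 with limma on log2(FPKM + 0.1) and log2(FPKM + 1), and 0.457 with only the libraries compared.

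The difference between the ploidies was tested itself by edgeR's quasi-likelihood test, in which 0 genes passed (smallest adjusted p = 0.409). At an unadjusted p under 0.05 there were 945 genes (3.66%), DESeq2 called 74 and limma 0. The diploid's higher genes had a median log2 fold change of 0.60 in the diploid and 0.52 in the autotetraploid, and its lower genes -0.89 in the diploid and -0.74 in the autotetraploid. Genes chosen for passing in the diploid are on average overstated there, so these medians do not rank the ploidies.

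The 4 named genes that fell in the diploid also fell in the autotetraploid. RCA1 changed by -3.28 in the diploid and by -3.08 in the autotetraploid, where it had 174, 162 and 128 CPM at 12 h, against 1061, 1313 and 1563 CPM at 6 h. RCA2 changed by -2.07 in the diploid and by -2.56 in the autotetraploid (adjusted p = 1.51e-07 there), and the difference between the ploidies had an unadjusted p of 0.106. Catalase changed by -0.88 in the diploid and -0.86 in the autotetraploid, and GAPDH by -0.42 in the diploid and -0.49 in the autotetraploid. EF1-gamma, which just missed the threshold in the diploid, passed in the autotetraploid at 0.22 (adjusted p = 0.0423), and Glu-1 did not pass there at 0.30 (adjusted p = 0.124). Of the 12 identifiers named by the rule, 11 were called in the same direction in the autotetraploid, and the exception was the new gene model, at -3.31 (adjusted p = 0.0792).

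**Figure D5:**
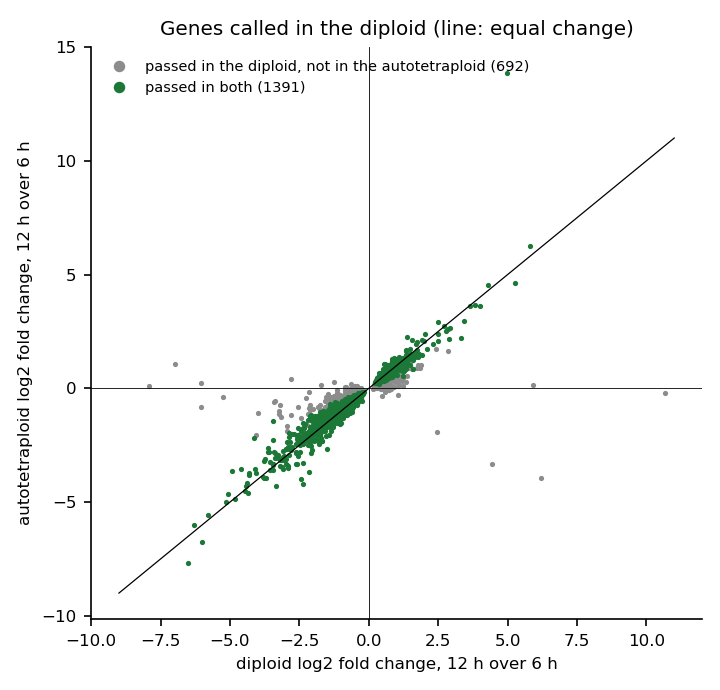
Log2 fold change of 12 h over 6 h in the autotetraploid (y axis) against that in the diploid (x axis) for the 2083 genes called in the diploid, with the line of equal change. Most of the 1391 genes that passed in both ploidies (green) lie along the line, and the 692 others (grey) lie mostly between it and the horizontal axis.

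The share of genes called differed between gene classes. The share called lower also rose with level, as given above, and the part of level in these differences was not tested. Of the 17149 tested genes listed as protein-coding, 1168 (6.81%) were lower and 559 (3.26%) higher, and of the 2760 new gene models, which carry no annotation, 50 (1.81%) were lower and 19 (0.688%) higher. Transcript length differed by direction: the higher genes had a median of 2512 bases, against 1798 bases both for the lower genes and for all genes tested. When the genes were ranked by length into 4 equal classes, in the longest 5.02% were higher and 4.73% lower, and in the shortest 1.03% were higher and 4.41% lower. Long transcripts collect more counts at a given abundance, and no test of length was made.

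Along the chromosomes of the reference table, 13313 pairs of neighbouring genes were both tested, and in 188 pairs both were called. Of these, 112 pairs were both lower, 28 both higher and 48 opposite. Per chromosome, 5.68 to 8.2% of the tested genes were lower and 1.74 to 4.3% higher. Whether such pairs or runs exceed those of genes placed at random was not tested. The longest run held 3 adjacent genes on chromosome 1, all lower. These were LOC107413540, described above, LOC107413633 with a mean of 269 CPM at 12 h and 1590.1 CPM at 6 h (log2 fold change -2.56, adjusted p = 7.22e-04), and LOC107413640 with 1.29 CPM at 12 h and 2.35 CPM at 6 h (-0.86, adjusted p = 0.0387). How reads shared by similar neighbouring genes were counted is not given in the sources used here, so values of adjacent genes that resemble each other are uncertain.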

How the data were processed

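RNA sequencing libraries of leaves were grouped by ploidy and treatment as their titles give them. The gene counts were deposited by the authors as whole numbers per gene and library, not normalized, per the file headers. The authors also deposited 1 table per group whose values were read as FPKM, fragments relative to transcript length and sequencing depth. The headers name no unit, and it was read from the values. Count over value and library total gave like transcript lengths across libraries for genes such as GAPDH, catalase, RCA1 and RCA2. For ZjPIP2, Glu-1 and Ziziphus_jujuba_newGene_4791 these lengths differed between libraries. These tables list genes that reach 0.1 in a library of the group. HISAT2 and StringTie are named, with no version, in the submitters' processing notes. Build, annotation and strand setting are not given in the sources used here, so a gene and an overlapping antisense partner cannot be told apart. Depth was 30750412 to 42544833 counts in the 6 libraries compared, and any 2 libraries of a group differed by far more than sampling noise.

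Counts were tested in R 4.3.3 with edgeR 4.0.16: filterByExpr by group, TMM factors, 1 mean per group over all 24 libraries (16 residual degrees of freedom), robust quasi-likelihood F tests and Benjamini-Hochberg adjustment over 25829 genes, called under 0.05. The standard error is the absolute log2 fold change divided by the square root of F. Single values were compared with exact permutation tests. FPKM served the ratio of both activase genes and an alternative test on log2(FPKM + 0.1) or log2(FPKM + 1) with limma 3.58.1. It also gave transcript lengths, as counts over FPKM and total, with the median over the libraries compared taken for each gene. Other alternatives were DESeq2 1.42.0, other scalings, filters and thresholds, fewer libraries, a replicate block and leaving out each library. The scripts were tested on simulated data.

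Names, classes and gene order came from a RefSeq gene table of assembly ASM3175591v1, which held 19767 of 29293 LOC identifiers. It describes no gene, so lists chosen by description were not evaluated and no sequence is shown. Named were all 20 genes with an established name, of which 18 could be tested, then per direction the 2 largest folds among called genes with at least 5 CPM on average, separate groups and under 10-fold spread within a time, and the 5 of highest level among genes changed at least 2-fold. The comparison, the lists and the rule were chosen with earlier results of these data known.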

Additional observations from a re-analysis of the deposited data

Results flagged for a closer look

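A gene named in the text was flagged if its difference between the ploidies passed the test. It was also flagged if its times did not overlap in either ploidy and moved in opposite directions. Only 1 gene met this rule, by the second condition. In the diploid it did so narrowly, with 146 CPM in the lowest library at 12 h and 136 CPM in the highest at 6 h. The 12 h over 6 h difference of Ziziphus_jujuba_newGene_4791 ran in opposite directions in the ploidies, with a log2 fold change of 4.42 in the diploid and -3.31 in the autotetraploid. The difference between both was 7.73 on the log2 scale, with an unadjusted p of 1.46e-04 in edgeR's quasi-likelihood test. It did not pass after adjustment over all genes tested (adjusted p = 0.553). The libraries held 2605, 146 and 5468 CPM in the diploid at 12 h, against 115, 136 and 132 CPM in the diploid at 6 h. They held 61.9, 28.4 and 234 CPM in the autotetraploid at 12 h, against 1785, 795 and 643 CPM in the autotetraploid at 6 h. Diploid controls held 1287, 641 and 1025 CPM.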

How the results depend on the processing

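With 3 libraries a group, no exact permutation test over the libraries can go below p = 0.1. The 2083 diploid calls became 1246 at an adjusted p of 0.01, and between 1474 and 1825 on leaving out 1 library. The other scalings, filters and tools kept the count within 1.5 times. The genes called changed as well. Of the 2083, 1399 were called again with only the libraries compared, 1759 with library totals alone and 2076 with DESeq2. Leaving out 1 library moved the difference in the share of the 100 most abundant genes, of -2.59 percentage points, to between -3.42 and -1.90, an alternative chosen after seeing the data, as was that of 50 genes (-2.38).

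The 2080 autotetraploid calls became 3304 and 3400 with limma on log2(FPKM + 0.1) and log2(FPKM + 1), 850 with only the libraries compared, 1200 at an adjusted p of 0.01 and 1504 to 1907 on leaving out 1 library. The 1391 shared calls became 629 with only the libraries compared, 894 at an adjusted p of 0.01 and 1126 to 1307 on leaving out 1 library. The test of a difference between ploidies called 0 genes, 74 with DESeq2, and 0 to 4 on leaving out 1 library. The cause of these shifts was not tested. Fewer libraries also leave fewer degrees of freedom, and the part of this was not tested either.

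The replicate numbers did not pair the libraries: deviations of same-numbered libraries at 12 h and 6 h correlated at 0.037, 0.008 and -0.029. A replicate block over all 24 libraries gave 1965 diploid calls. A replicate block with only the libraries compared gave 554 diploid, 113 autotetraploid and 95 shared calls, and left RCA1 called, RCA2 at an adjusted p of 0.0671, GAPDH at 0.109 and catalase at 0.158.

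For the genes named in the text, 539 of the recomputed values kept direction and side of the threshold, 23 lost a call, 8 gained one and 0 reversed. Besides those given above, the calls of LOC107426784, LOC107420469 and LOC107420125 ended only under that last block.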
